A study of Mus musculus with 14 samples.

Results

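The oligoadenylate synthetase family was represented on the array by 7 genes, Oas1a, Oas1b, Oas1g, Oas2, Oas3, Oasl1 and Oasl2, of 34836 gene names in all. Every probe whose annotated name is one of these genes was taken, which gave 11 of 55681 probes, each printed as 1 spot per array. Tests were run on probes that, in at least 1 of the groups, were well above background on all of its arrays, and 9 of the 11 met this. The 2 that did not are both probes of Oas1g, and the Oas2 probe passed only through the Si1AK group.

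The cells were mSCC-38, a mouse line derived from a skin squamous cell carcinoma that was induced with the initiator DMBA and the promoter TPA. Cells received Si1AK or Si2AK, a pair of siRNAs directed at the transcript AK144841, or the control siRNA SiC, each carried by the lipid reagent RNAimax and harvested after 72 h. The NT group was not transfected, and no time is given for it. There were 4 NT, 3 SiC, 4 Si1AK and 3 Si2AK arrays, each from 0.2 µg of RNA with an integrity number of 9 and 600 ng of labelled product, all of 1 cell line, so that every group shares whatever that line carries. The labels do not say whether replicates came from separate cultures, and a p-value therefore covers only the spread of these arrays, part or all of which may be technical. The targeted transcript AK144841 was not analysed here, and no value below checks the knockdown.

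Oligoadenylate synthetases are sensors of double-stranded RNA in the cytoplasm. On binding it, the active enzymes join ATP into short 2′,5′-linked oligoadenylates (2-5A), a second messenger whose downstream pathway leads to the cutting of viral and cellular RNA. The genes are induced by interferon, and keratinocytes are among the cells that express them. Oas1a, Oas1g, Oas2 and Oas3 encode synthetases, Oas2 and Oas3 being larger proteins with repeated synthetase units. Oas1b is known for the resistance to flaviviruses that its full-length form gives, and RefSeq lists it as a transcribed pseudogene in the reference mouse strain. Oasl1 and Oasl2 are the synthetase-like genes: Oasl1 lacks the enzymatic activity and restrains translation of the interferon regulator Irf7, while Oasl2 has kept the activity.

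All 11 probes lie on chromosome 5 of mouse build mm9 by the array's annotation. The Oas1, Oas2 and Oas3 probes fall in a cluster from the Oas2 probe at chr5:121180343-121180402 to the Oas1a probe at chr5:121348338-121348397, and the probes of Oasl2 (chr5:115362168-115362227) and Oasl1 (chr5:115387861-115387920) lie apart from it. Whether the probes fall in coding or untranslated sequence was not analysed here. The Oas1 genes are close copies of each other, so the probes were compared letter by letter. Oas1a has 2 probes. A_55_P1998943, called the shared probe here, is annotated to transcripts of both Oas1a and Oas1g (chr5:121346735-121346794), whereas A_55_P1998942, the specific probe, lists an Oas1a transcript alone. The longest run that the 2 Oas1a probes have in common is 5 bases, so they read different stretches.

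The first 30 bases of the shared Oas1a probe are shown beside the matching 30 bases of the probe for Oas1f, a paralogue outside the 7 genes, because the pair rose and fell together in the arrays. Capitals mark the bases at which they differ.
Oas1a shared probe: tgtccacctgttggAaggttctgtcTGaCA
Oas1f probe: tgtccacctgttggGaggttctgtcCAaTG
Oas1a specific probe: tgatgtgtgggtatggtacccatgttttat
Of the 30 bases, 25 were the same and 5 differed, with 14 as the longest shared run. Over the whole alignment of the 2 probes, 48 of 58 bases (82.8%) were identical. How far either probe binds the other gene's transcript was not tested.

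Oas1b has 3 probes, numbered here by their order along the transcript. The first (A_55_P1959064) shares at most 5 bases in a row with either of the others. The second (A_55_P1998962) and the third (A_55_P1959061) have a run of 42 bases in common, and capitals mark the start of that run.
Oas1b probe A_55_P1998962: ggactgaactTCTGAACCTGTAAGCCAACC
Oas1b probe A_55_P1959061: gTCTGAACCTGTAAGCCAACC
These 2 probes therefore read largely the same stretch of the transcript.

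Promoter sequence was read for the members that RefSeq's promoter table on build GRCm38.p6 holds, which are Oas1a, Oas1g, Oas3, Oasl1 and Oasl2. Oas1b and Oas2 were not matched in it. Both strands of the window of 300 bases around each start were searched for the core of the interferon-stimulated response element (ISRE), read as GAAA, any 2 bases and GAAA, and for TTCNNNGAA, the gamma-activated site. The ISRE core occurs in 3.44% and the gamma-activated site in 8.3% of the 32851 windows of that length. The 110 bases before the start are shown for the 2 genes that moved most between the siRNAs and for Oas3, with ISRE matches in capitals.
Oas1a promoter (chr5:120907526-120907635, minus strand): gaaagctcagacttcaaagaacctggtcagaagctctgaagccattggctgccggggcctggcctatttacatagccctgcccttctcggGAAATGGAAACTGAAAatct
Oas3 promoter (chr5:120777660-120777769, minus strand): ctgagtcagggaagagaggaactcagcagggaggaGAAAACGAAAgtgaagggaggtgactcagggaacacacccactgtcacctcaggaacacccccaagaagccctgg
Oasl1 promoter (chr5:114923130-114923239, plus strand): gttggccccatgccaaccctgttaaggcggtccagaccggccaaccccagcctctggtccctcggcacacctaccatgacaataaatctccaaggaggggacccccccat
Oas1a held 2 overlapping ISRE matches, at 20 and 14 bases before the start, and Oas1g held the same 16 letters shifted by a few bases. Oas3 held 1 match at 75 bases before the start. Neither Oasl1 nor Oasl2 held a match in its window, which says only that these letters are not there. The gamma-activated site was found once among these genes, at 98 bases before the start of Oas1a. The matches are a description of sequence and bear on no factor's binding.

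A level below is log2 of the processed spot signal minus the 75th percentile of its array, and a difference is between group means of such levels. Differences are given with their standard error from limma fitted to all 30326 tested probes, and a probe was called at a Benjamini-Hochberg adjusted p below 0.05 over all of them. The 2 siRNA comparisons share the SiC arrays, so their values are set side by side and not counted as separate evidence. Of the 14 arrays, 12 had a median processed signal of 23.5 to 58.7, and SiC replicate 1 (270.9) and Si2AK replicate 2 (107.5) exceeded them all. This pair also had 90.5% and 84.8% of probes well above background, where the others had 51.8 to 59.4%. Both stand apart from the rest. Without them limma called 2 of the 9 tested family probes for Si1AK against SiC, 3 for Si2AK against SiC and 6 for Si2AK against Si1AK, where the counts with all arrays, given below, were 2, 3 and 4. Over all 30326 tested probes it called 1163, 2345 and 3974 without them, and 961, 2931 and 2810 with all arrays. The 6 include Oas2, which entered the tests only through the Si1AK group. The choice of scaling itself shifted the whole distribution: the median difference over all probes between Si1AK and SiC was -0.080 with the 75th percentile and 0.078 with quantile normalization, and between Si2AK and Si1AK it was 0.12 and -0.055. No called difference of a member changed sign under any scaling or array subset tried.

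Among the 9 tested probes, limma called 2 with Si1AK against SiC, both higher and both of Oas1a, where 3.17% of all tested probes were called (2.19% higher, 0.983% lower). With Si2AK against SiC it called 3, 1 higher (Oasl1) and 2 lower (both Oas1a), where 9.66% of all were called (6.54% higher, 3.13% lower). Between Si2AK and Si1AK it called 4, where 9.27% of all were called (4.87% higher, 4.39% lower): the 2 Oas1a probes and Oasl2 were lower and Oasl1 was higher with Si2AK. Against NT it called 3 higher with Si1AK, the 2 Oas1a probes and Oasl2, where 4.84% of all were called (2.87% higher, 1.97% lower). With Si2AK against NT it called Oasl1 higher and the shared Oas1a probe lower, where 11.5% of all were called (6.27% higher, 5.23% lower). The median difference over the 9 probes was 0.23 for Si1AK against SiC, where that of all probes was -0.080, and -0.29 for Si2AK against SiC, where that of all probes was -0.016. With so few probes these shares describe single genes more than a family.

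**Figure D1:**
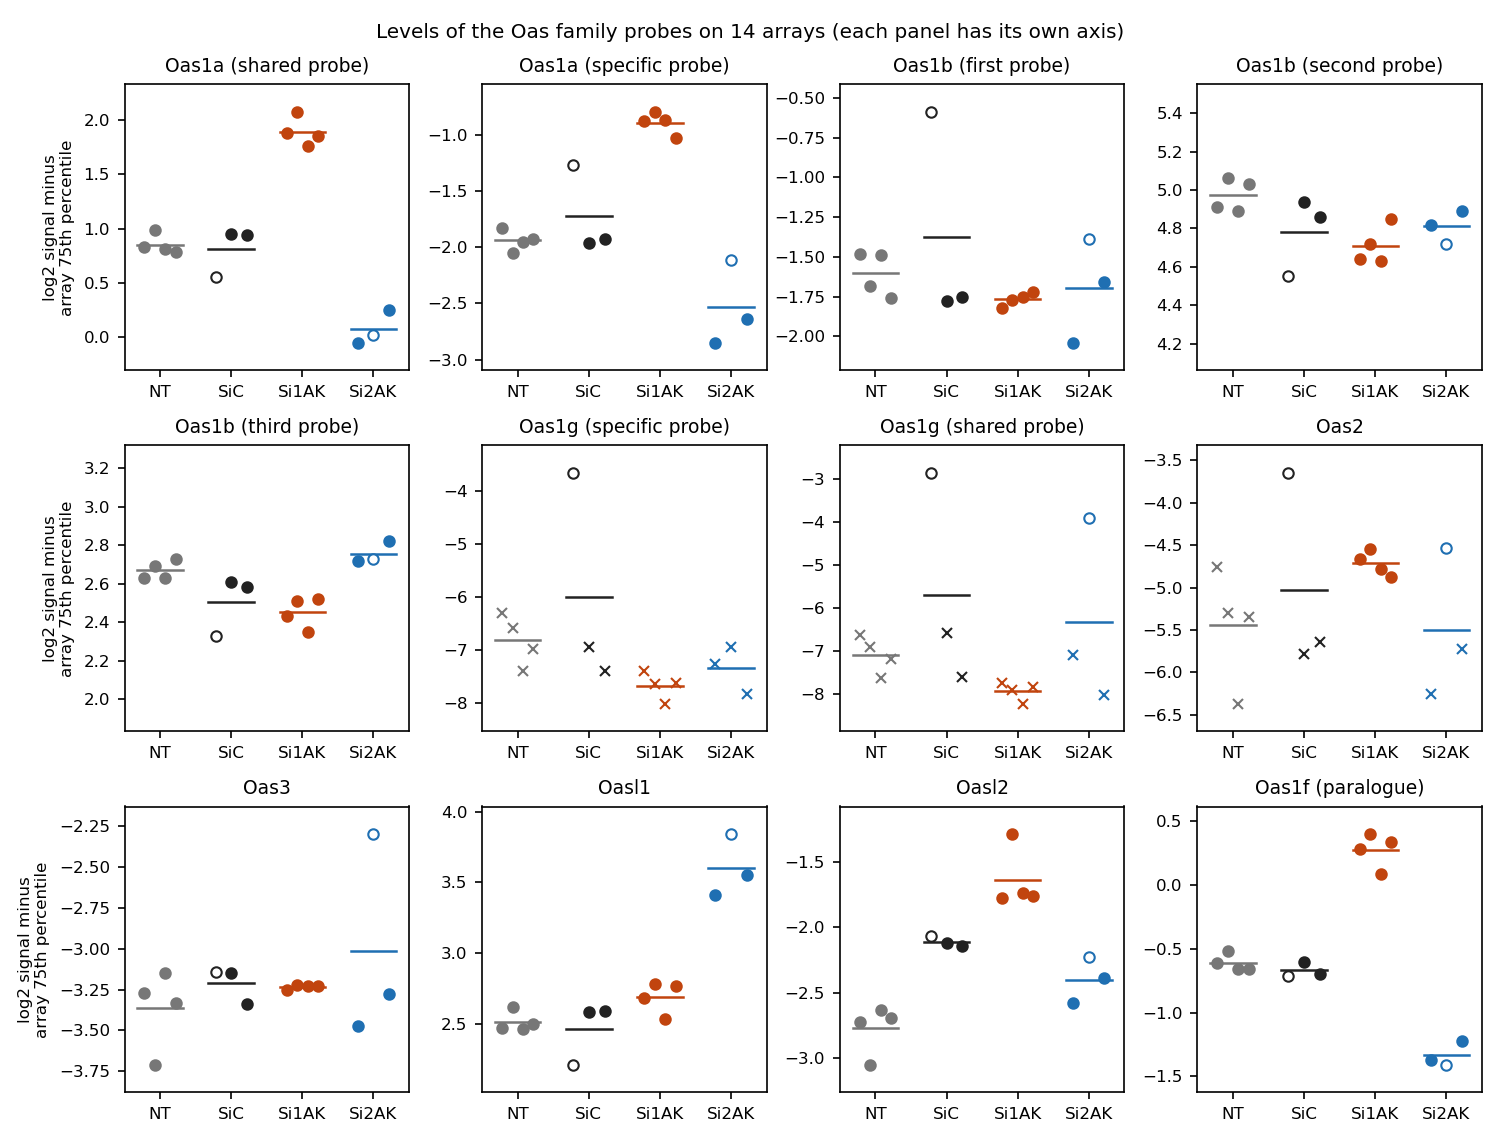
Level of each probe (log2 signal minus the array's 75th percentile) on the 14 arrays, by group, with 1 panel and 1 axis range per probe. Points are arrays and bars are group means. Open circles are SiC replicate 1 and Si2AK replicate 2, the arrays of raised signal, and crosses are arrays on which the probe was not well above background. Both Oas1a probes and Oas1f are highest with Si1AK and lowest with Si2AK, Oasl1 is highest with Si2AK, and the Oas1g probes are mostly not above background.

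Oas1a, a synthetase gene, moved in opposite directions with the 2 siRNAs. On its shared probe the 4 NT arrays read 0.83, 0.99, 0.81 and 0.78, and the 3 SiC arrays 0.55, 0.95 and 0.94. The 4 Si1AK arrays read 1.88, 2.07, 1.76 and 1.85, and the 3 Si2AK arrays -0.05, 0.02 and 0.25. Every Si1AK array lay above every control array and every Si2AK array below every control array, while NT and SiC overlapped.

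On this probe Si1AK was 1.08 ± 0.124 higher than SiC (a 2.11-fold level, 95% interval 1.75 to 2.55, limma adjusted p = 0.000939). Si2AK was lower than SiC by 0.74 ± 0.133 (limma, a difference of -0.74, adjusted p = 0.00572), and SiC was 1.67-fold above it. The siRNAs differed from each other by -1.82 ± 0.124 (Si2AK minus Si1AK, limma adjusted p = 1.16e-05), a 3.52-fold span. SiC and NT differed by -0.039 ± 0.124 (limma adjusted p = 0.905), with a 95% interval from -0.31 to 0.23. Against the untransfected cells the directions were as against SiC, 1.04 higher with Si1AK (limma adjusted p = 0.000527) and a difference of -0.78 with Si2AK (limma adjusted p = 0.00213). Without the raised pair Si1AK differed from SiC by 0.94 and Si2AK by -0.84, both called by limma (adjusted p = 0.00268 and 0.00529).

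The specific Oas1a probe gave the same order from another stretch of the transcript. It read -1.83, -2.05, -1.95 and -1.93 on NT arrays and -1.27, -1.96 and -1.93 on SiC arrays. It read -0.88, -0.80, -0.87 and -1.03 with Si1AK, and -2.85, -2.11 and -2.64 with Si2AK. The highest SiC and the highest Si2AK value are those of the arrays of raised signal. The groups do not overlap between Si1AK and SiC or between Si2AK and SiC, as was so for 18.8% and 22.8% of all tested probes.

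On the specific probe Si1AK was 0.82 ± 0.190 above SiC (limma adjusted p = 0.0392), and Si2AK differed from SiC by -0.82 ± 0.203 (limma adjusted p = 0.0271). Between the siRNAs the difference was -1.64 ± 0.190 (Si2AK minus Si1AK, limma adjusted p = 0.000312). Both comparisons with SiC were close to the threshold. The Si1AK call was lost, at limma adjusted p from 0.0613 to 0.119, when SiC replicate 2 (0.71) or 3 (0.72) or Si1AK replicate 1 (0.82), 2 (0.79), 3 (0.81) or 4 (0.87) was left out, and rose to 1.05 (limma adjusted p = 0.00909) without SiC replicate 1. The Si2AK call was lost without SiC replicate 1 (-0.59), Si2AK replicate 1 (-0.66) or Si2AK replicate 3 (-0.76), and the difference was -0.52 with quantile normalization and -0.38 in the authors' deposited table, neither called. The difference between the siRNAs stayed called in each of the 7 fits that left out 1 array.

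Across the 14 arrays the levels of the 2 Oas1a probes had a Pearson r of 0.880, and of 0.985 over the 12 arrays without the raised pair. The points share the groups and the scaling of each array, so the value is a description. Slides were also compared, since each of the 2 slides holds all 4 groups. The only SiC array on slide 1 is replicate 1, of raised signal, so slide 1 sets each siRNA against that array alone. On the shared probe Si1AK against SiC was 1.43 within slide 1 and 0.86 within slide 2, and Si2AK against SiC was -0.57 and -0.69. With slide as a block those differences were 1.08 and -0.72, both called by limma (adjusted p = 0.000983 and 0.00738). Within a slide the groups hold 1 or 2 arrays, and neither comparison with SiC was called there (limma adjusted p = 0.0741 and 0.0694 for Si1AK). Fitted on only the arrays of SiC and Si2AK, the shared probe kept its difference of -0.74 but not its call (limma adjusted p = 0.201).

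Oas1g, the synthetase gene that shares the probe above, could not be followed by itself. Its specific probe, A_55_P1998977, was well above background on SiC replicate 1 alone of the 14 arrays. Its other probe, A_55_P1998979, which also lists an Oas1a transcript, was well above background on SiC replicate 1 and Si2AK replicate 2 alone. Both of those are the arrays of raised signal. The 4 Si1AK arrays, on which the shared Oas1a probe was highest, read between -8.02 and -7.41 on the specific Oas1g probe and between -8.22 and -7.75 on the other, in every case not well above background.

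Oas1f, a paralogue in the same cluster, was measured by a probe of its own at chr5:121307929-121307988 and followed Oas1a. It read -0.61, -0.52, -0.66 and -0.66 on NT arrays and -0.71, -0.60 and -0.70 on SiC arrays. It read 0.28, 0.40, 0.09 and 0.34 with Si1AK, and -1.37, -1.41 and -1.22 with Si2AK. Si1AK was 0.94 ± 0.092 above SiC (limma adjusted p = 0.00036), Si2AK differed from SiC by -0.67 ± 0.098 (limma adjusted p = 0.00188), and the siRNAs differed by -1.61 ± 0.092 (limma adjusted p = 4.9e-06). Oas1f had the highest correlation with the shared Oas1a probe of all named genes tested (r = 0.991 over 14 arrays, 0.994 over 12), and the 2 probes are the similar pair shown above. With the specific Oas1a probe, which has at most 5 bases in a row in common with the Oas1f probe, r was 0.904 over 14 arrays and 0.983 over 12.

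**Figure D2:**
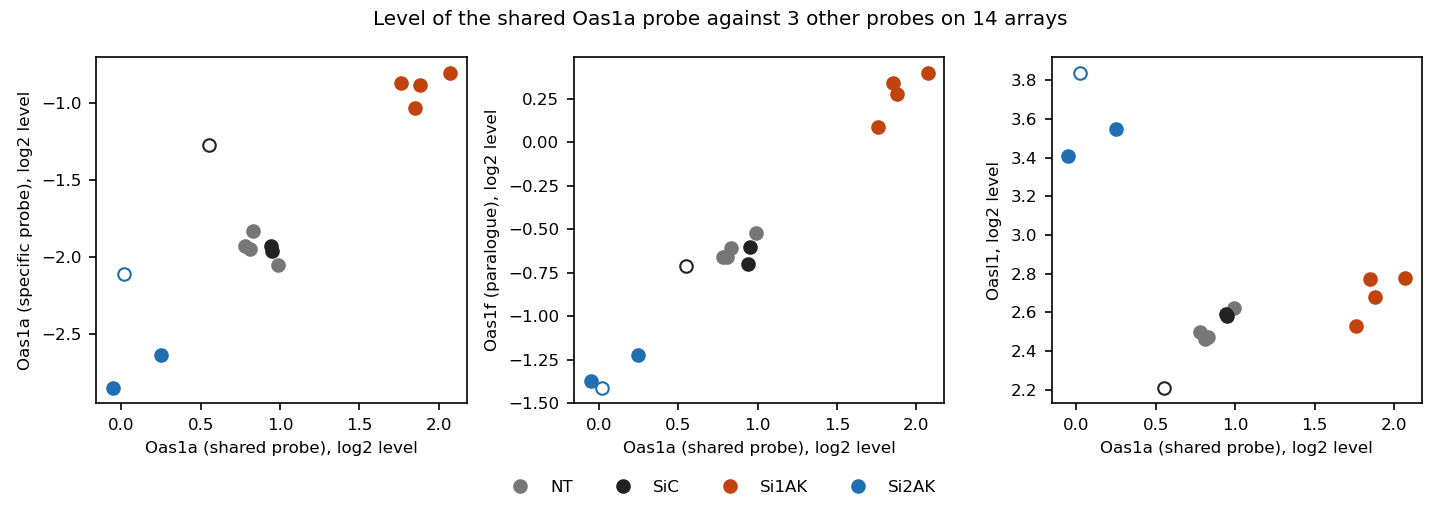
Level of the shared Oas1a probe (horizontal, log2) against those of the specific Oas1a probe, the Oas1f probe and the Oasl1 probe (vertical, log2) on 14 arrays. Each point is an array, coloured by group, and open points are the arrays of raised signal. In the first 2 panels the Si1AK arrays lie at the upper right and the Si2AK arrays at the lower left, with r of 0.880 and 0.991. In the third the Si2AK arrays lie at the upper left.

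Of the other 4 Oas1 paralogues on the array, Oas1h had no tested probe. Oas1c was lower with Si2AK, by a difference of -0.61 ± 0.153 from SiC (limma adjusted p = 0.0286) and of -0.56 ± 0.143 from Si1AK (limma adjusted p = 0.0297), and differed by -0.045 between Si1AK and SiC. These Oas1c calls were lost in 3 of 6 and 5 of 7 fits that left out 1 array: against SiC without SiC replicate 1 (-0.46), Si2AK replicate 1 (-0.54) or Si2AK replicate 3 (-0.52), and against Si1AK without Si1AK replicate 1, 2 or 3 or Si2AK replicate 1 or 3 (-0.56 to -0.48). Oas1d differed by -1.08 ± 0.454 between Si1AK and SiC and Oas1e by -0.31 ± 0.481, and neither passed the test (limma adjusted p = 0.238 and 0.728). On SiC replicate 1 alone Oas1d read -1.23 and Oas1e -1.49, where the other SiC arrays read -3.13 and -3.01, and -3.57 and -3.73. Without that array the differences were -0.47 for Oas1d and 0.41 for Oas1e, the latter with its sign turned, and again neither was called (limma adjusted p = 0.606 and 0.624). Without the raised pair Oas1d was 0.80 higher with Si2AK than with Si1AK (limma adjusted p = 0.0367), a call not made with all arrays.

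Oas1b passed the test on none of its 3 probes in any comparison. The second probe read between 4.89 and 5.06 on NT, between 4.55 and 4.94 on SiC, between 4.63 and 4.85 on Si1AK and between 4.72 and 4.89 on Si2AK arrays. Si1AK differed from SiC by -0.073 ± 0.107 (95% interval -0.31 to 0.16) and Si2AK by 0.024 ± 0.114 (95% interval -0.23 to 0.27). Those intervals, of the second probe, leave out changes of the size seen for Oas1a. The first probe does not settle this. It differed from SiC by -0.39 ± 0.254 with Si1AK (95% interval -0.95 to 0.16) and by -0.32 ± 0.271 with Si2AK (95% interval -0.92 to 0.27). Neither was called (limma adjusted p = 0.419 and 0.571). Both intervals include -0.74, the Si2AK difference on the shared Oas1a probe.

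The third Oas1b probe, which overlaps the second, was 0.30 ± 0.088 higher with Si2AK than with Si1AK (limma adjusted p = 0.0515), with no overlap of the arrays, as was so for 28.0% of all tested probes. It was called in 7 of 12 other settings, among them the fit without the raised arrays (0.32, limma adjusted p = 0.0245) and the authors' deposited table (0.27, limma adjusted p = 0.025). The second probe differed by 0.096 ± 0.107 in the same comparison, and there the arrays of the groups overlapped. The first probe differed between Si2AK and Si1AK by 0.070 ± 0.254, and its widest value, -0.59 on SiC replicate 1, stood against -1.78 and -1.75 on the other SiC arrays.

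Oas2, the medium-sized synthetase, was near the limit of detection. It was well above background on all 4 Si1AK arrays (-4.66, -4.54, -4.78 and -4.87), on 1 of 3 SiC arrays (-3.65), on 1 of 3 Si2AK arrays (-4.53) and on no NT array. The single SiC and Si2AK readings are again those of the raised arrays. The dim NT arrays were also set at the lowest signal their well-measured probes reached, or at the probe's own value if that was higher. The Si1AK mean was then 1.29-fold above the NT mean, a value that leaves out the spread of the arrays. The fitted difference was 0.73 ± 0.502 (95% interval -0.37 to 1.83, limma adjusted p = 0.496), from a mean of -5.45 on NT to -4.71 on Si1AK. That interval spans both signs, and NT replicate 1 (-4.76) lay above Si1AK replicates 3 and 4. A higher level with Si1AK than in NT is therefore not established for Oas2. Between Si2AK and Si1AK the difference was -0.79 ± 0.542. It was -1.28 without the 2 raised arrays, -1.16 with array weights and -0.37 with normexp background correction and quantile normalization. The probe entered the tests only through the Si1AK group, where it is high, so these differences are a description and no call is read from them, although the fits under those 3 settings count it among the called probes.

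Oas3, the largest synthetase, passed the test nowhere. It read -3.25, -3.22, -3.23 and -3.23 with Si1AK and -3.14, -3.15 and -3.34 with SiC, which overlap. Si2AK read -3.47, -2.30 and -3.28, the middle value being the raised array. The difference between Si1AK and SiC was -0.019 ± 0.231 (95% interval -0.52 to 0.49), and between Si2AK and SiC 0.20 ± 0.247 (95% interval -0.34 to 0.74). The first interval leaves out the 1.08 seen on the shared Oas1a probe. Under quantile normalization the Oas3 differences reached 1.37 and 1.18, still not called (limma adjusted p = 0.319 and 0.416). Without the raised pair they were 0.016 and -0.13, the second with its sign turned, and neither was called.

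Oasl1, the synthetase-like gene without enzymatic activity, rose with Si2AK. It read 2.47, 2.62, 2.46 and 2.50 on NT arrays and 2.21, 2.58 and 2.59 on SiC arrays. It read 2.68, 2.78, 2.53 and 2.77 with Si1AK, and 3.41, 3.84 and 3.55 with Si2AK. The 3 Si2AK arrays lay above all others, while Si1AK overlapped both controls.

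Si2AK was 1.14 ± 0.136 above SiC (a 2.21-fold level, 95% interval 1.80 to 2.71, limma adjusted p = 0.000702), 1.09 ± 0.127 above NT (limma adjusted p = 0.000345) and 0.91 ± 0.127 above Si1AK (limma adjusted p = 0.00104). Si1AK differed from SiC by 0.23 ± 0.127 (95% interval -0.044 to 0.51, limma adjusted p = 0.353). Without the raised arrays the Si2AK difference from SiC was 0.90 (limma adjusted p = 0.00163). Within slides it was 1.42 and 0.97, neither called, the first against SiC replicate 1 alone, and with slide as a block 1.15. Fitted on only the arrays of SiC and Si2AK it was not called (limma adjusted p = 0.137).

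Oasl2, the synthetase-like gene that keeps the activity, was lowest in untransfected cells. It read -2.72, -3.05, -2.63 and -2.69 on NT arrays and -2.07, -2.12 and -2.14 on SiC arrays. It read -1.78, -1.29, -1.74 and -1.76 with Si1AK, and -2.58, -2.23 and -2.39 with Si2AK. No pair of groups overlapped, in the order NT, Si2AK, SiC, Si1AK from low to high. Groups that do not overlap were common on the array: 5.37% of all tested probes for SiC against NT, 20.2% for Si1AK against NT, 24.1% for Si2AK against NT and 28.0% for Si2AK against Si1AK.

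Not all of these steps passed the test. Si1AK was above NT by 1.13 ± 0.133 (a 2.19-fold level, limma adjusted p = 0.000715), and Si2AK differed from Si1AK by -0.76 ± 0.143 (limma adjusted p = 0.00643). The neighbouring steps did not pass: Si1AK minus SiC was 0.47 ± 0.143 (limma adjusted p = 0.112), Si2AK minus SiC -0.29 ± 0.153 (limma adjusted p = 0.302) and Si2AK minus NT 0.38 ± 0.143 (limma adjusted p = 0.127). SiC minus NT was 0.66 ± 0.143, with an unadjusted p of 0.000613 and a limma adjusted p of 0.672. Of the 30326 probes limma called none between SiC and NT (0.0%), 1996 had an unadjusted p below 0.05, and Oasl2 was the only one of the 9 family probes among them.

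Oasl2 depended on the scaling more than Oas1a or Oasl1. With quantile normalization, with normexp and in the authors' deposited table, SiC minus NT was -0.17, 0.030 and 0.0057, Si2AK minus SiC was 0.39, 0.10 and 0.14, and Si1AK minus SiC was 1.42, 0.82 and 0.88. None of these was called. The calls of Si1AK against NT (0.85 to 1.25 under those scalings) and of Si2AK against Si1AK (-1.03 to -0.72) were lost as well, and both were lost within each slide. The order of SiC among the groups is therefore not settled for this gene, whereas Si1AK stayed above NT in each of the 21 fits tried.

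**Figure D3:**
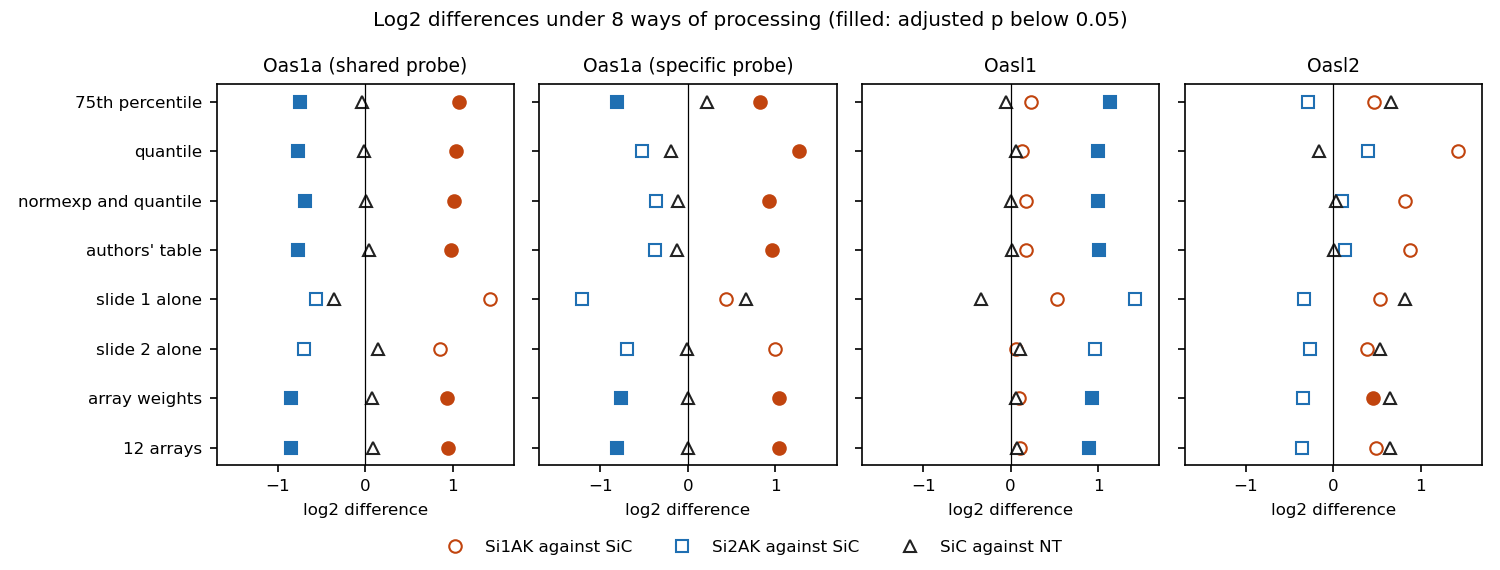
Log2 difference of the 2 Oas1a probes, Oasl1 and Oasl2 for Si1AK against SiC (circles), Si2AK against SiC (squares) and SiC against NT (triangles) under 8 ways of processing; filled symbols had a limma adjusted p below 0.05. The row named 12 arrays leaves out the 2 arrays of raised signal. The shared Oas1a probe runs from 0.86 to 1.43 with Si1AK and Oasl1 from 0.90 to 1.42 with Si2AK, all above 0, while Oasl2 moves across 0 for SiC against NT and for Si2AK against SiC. The upper ends, 1.43 and 1.42, are those of slide 1 alone, whose only SiC array is replicate 1, of raised signal.

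**Figure D4:**
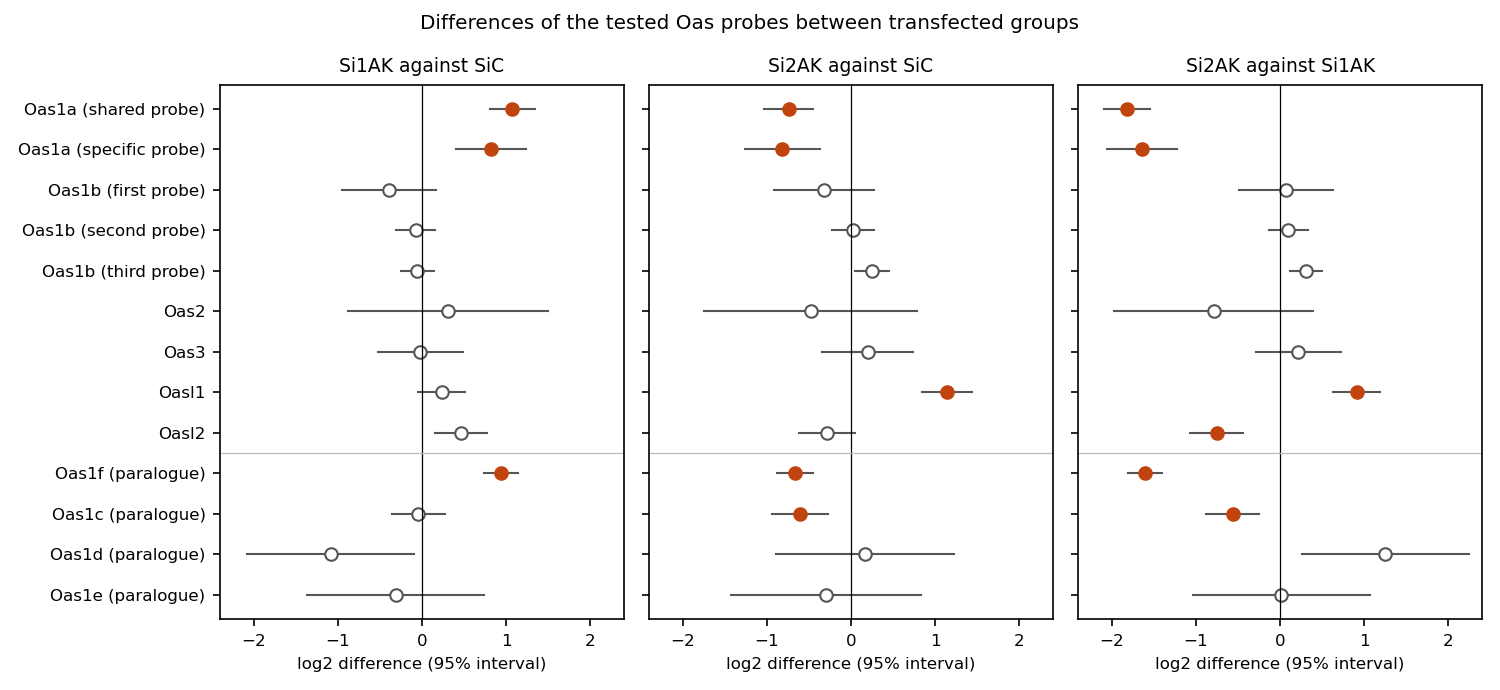
Log2 difference with its 95% interval (limma) for the 9 tested family probes and the 4 tested Oas1 paralogues below the grey line, in 3 comparisons. Filled points had an adjusted p below 0.05 over all 30326 probes. Intervals of Oas2, Oas1d and Oas1e are the wide ones, and those of the second and the third Oas1b probe are the narrowest among the uncalled.

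Tested genes with a symbol were ranked from high to low by Pearson r over the 14 arrays with Oas1a, Oas1b and Oasl1. These are the 3 members with the brightest single probe, and that probe was used. The Oas1b probes differ widely in level, with NT means of 4.97 on the second, 2.67 on the third and -1.60 on the first. After Oas1f, the shared Oas1a probe was followed by the long non-coding RNA Morrbid, Pde6h, Mmrn2 and Tnnt2 (r from 0.987 to 0.975). Their differences with Si1AK were between 0.64 and 1.29 and with Si2AK between -1.13 and -0.51, each called by limma. Oasl1 was followed by Bet1l, Sbno2, Hspb1, Rab11fip5 and Ehbp1l1 (r from 0.979 to 0.966), all of them called higher with Si2AK against SiC, by 0.64 to 1.03, and none with Si1AK. The second Oas1b probe was followed by Hmga1, Alyref, Polr2j, Rpl3 and Morf4l2 (r from 0.956 to 0.948), none of which was called against SiC. None of the genes named here after Oas1f was in a gene list used in this text. The arrays share groups and scaling, so the correlations are descriptions over 14 points. The genes were picked for likeness on these same arrays, so their calls follow largely from that choice and add no separate evidence.

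Partners of the 2-5A pathway were read beside the family. Abce1, whose product restrains the pathway downstream of 2-5A, differed from SiC by -0.067 ± 0.214 with Si1AK and by -0.44 ± 0.229 with Si2AK. Pde12, which encodes an enzyme that degrades 2-5A, differed by 0.15 ± 0.117 and by 0.19 ± 0.126. Akap7, a gene of another 2-5A-degrading enzyme, differed by 0.19 ± 0.198 and by -0.31 ± 0.211. Limma called none of these differences (adjusted p = 0.299 to 0.879), and none of the same genes between the siRNAs (limma adjusted p = 0.165 to 0.863).

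Of 13 tested sensors and adaptors of double-stranded RNA, 2 rose with Si1AK against SiC, where 2.52% of genes were called higher by their brightest probe and 0.856% lower. Ddx58, which encodes RIG-I, rose by 0.46 ± 0.112 (limma adjusted p = 0.0463) and Zbp1, a sensor of Z-form nucleic acid, by 0.58 ± 0.134 (limma adjusted p = 0.0379). Both calls were lost in every fit that left out 1 array and in the fit without the raised pair (0.36 and 0.60, limma adjusted p = 0.0896 and 0.057). With Si2AK 3 rose and 1 fell, where 7.53% of genes were called higher and 3.27% lower: Ifit1, which binds foreign RNA ends, by 0.86 ± 0.212, Ticam1, the Tlr3 adaptor, by 0.82 ± 0.128, and Trim25, which activates RIG-I, by 0.63 ± 0.169, while the helicase Dhx9 differed by -0.46 ± 0.128. Of these only Ticam1 stayed called by limma in all 6 fits that left out 1 array. Ifit1 stayed called without SiC replicate 1 (1.01), Trim25 without SiC replicate 3 (0.78) and Dhx9 without Si2AK replicate 3 (-0.56), and each lost its call in the other 5 fits. Without the raised pair no sensor was called with Si1AK and 2 were called with Si2AK, both higher, Trim25 (0.38) and Dhx9 (-0.47) having dropped out. The list's median difference was 0.15 with Si1AK and -0.0098 with Si2AK.

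No interferon or receptor gene of 11 tested, and no gene of 15 tested in interferon signalling and its feedback, was called by limma with either siRNA against SiC. Their medians were -0.043 and 0.17 with Si1AK and -0.24 and 0.12 with Si2AK. Over all genes, 2.52% were called higher and 0.856% lower with Si1AK, and 7.53% and 3.27% with Si2AK. Between the siRNAs 1 gene of each list was lower with Si2AK, where 4.87% of all genes were called lower. They were the lambda receptor chain Ifnlr1 (-0.88, limma adjusted p = 0.0397) and the regulator Irf8 (-0.76, limma adjusted p = 0.0383). Of 7 fits that left out 1 array each stayed called in 1, Ifnlr1 without Si2AK replicate 3 (-1.06) and Irf8 without Si2AK replicate 2 (-0.96). Without the raised pair both were called, at -0.76 and -0.96 (limma adjusted p = 0.021 and 0.000475). Ifnb1, the gene of interferon beta, was not tested, as its probe was well above background on 2 of 14 arrays.

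Among 38 tested interferon-stimulated effectors none was called with Si1AK against SiC, and with Si2AK 2 rose and 4 fell, where, as above, 7.53% of genes were called higher and 3.27% lower. Isg15, the ubiquitin-like modifier, rose by 0.90 ± 0.172 (limma adjusted p = 0.00792) and Ifi27 by 0.57 ± 0.109 (limma adjusted p = 0.00819). Mx1, a dynamin-like antiviral GTPase, differed by -1.43 ± 0.227 (limma adjusted p = 0.00292), the immunoproteasome subunit Psmb9 by -0.80 ± 0.105 (limma adjusted p = 0.00112), Lgals3bp by -0.76 ± 0.188 (limma adjusted p = 0.0268) and Gbp3, a guanylate-binding protein, by -0.59 ± 0.161 (limma adjusted p = 0.0394). Isg15, Ifi27, Mx1 and Psmb9 kept their calls in all 6 fits that left out 1 array. Lgals3bp kept its call without SiC replicate 1 (-0.88) or Si2AK replicate 1 (-0.87) and Gbp3 without SiC replicate 3 (-0.71). Without the raised pair 2 effectors were called higher with Si1AK, and with Si2AK 2 were called higher and 3 lower. The list's median was 0.046 with Si1AK and -0.19 with Si2AK. So Oas1a fell with Si2AK beside Mx1 and Psmb9 and Oasl1 rose beside Isg15, in a list that held calls in both directions.

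Against Si1AK directly, Si2AK called 1 effector higher and 7 lower, where 5.22% of genes were called higher and 4.87% lower. Isg15 was higher, and Mx1, Gbp3, Psmb9, Tap1, Lgals3bp, Uba7 and Igtp were lower. Of these 7, 3 stayed called without Si2AK replicate 3, where Tap1 (-1.001), Igtp (-0.60), Uba7 (-0.43) and Gbp3 (-0.61) did not pass (limma adjusted p = 0.0508 to 0.0729). Without Si2AK replicate 1, 4 stayed called, and Tap1 (-0.94), Igtp (-0.55) and Gbp3 (-0.57) did not (limma adjusted p = 0.0579 to 0.0958). Gbp3 and Igtp each kept the call in 1 of 7 fits that left out 1 array.

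Against NT, Si1AK called 5 of the 38 higher and none lower, where 3.17% of genes were called higher and 1.95% lower. They were Tap1, Lgals3bp, Ifi27, Xaf1 and Uba7, and Xaf1 and Uba7 kept their calls in all 8 fits that left out 1 array. Tap1 was lost in each of those fits (0.73 to 0.92). Ifi27 was lost without NT replicate 1 (0.42) or 4 (0.42) and without Si1AK replicate 1 (0.46) or 2 (0.40), and Lgals3bp without NT replicate 1 (0.75) and without Si1AK replicate 2 (0.71) or 3 (0.73). Ifit1, the sensor above, was higher than in NT by 1.11 with Si1AK and by 1.94 with Si2AK (limma adjusted p = 0.00534 and 0.000172). With the control siRNA it differed from NT by 1.08 ± 0.198, which was not called (limma adjusted p = 0.634), and Si1AK differed from SiC by 0.032 ± 0.198.

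**Figure D5:**
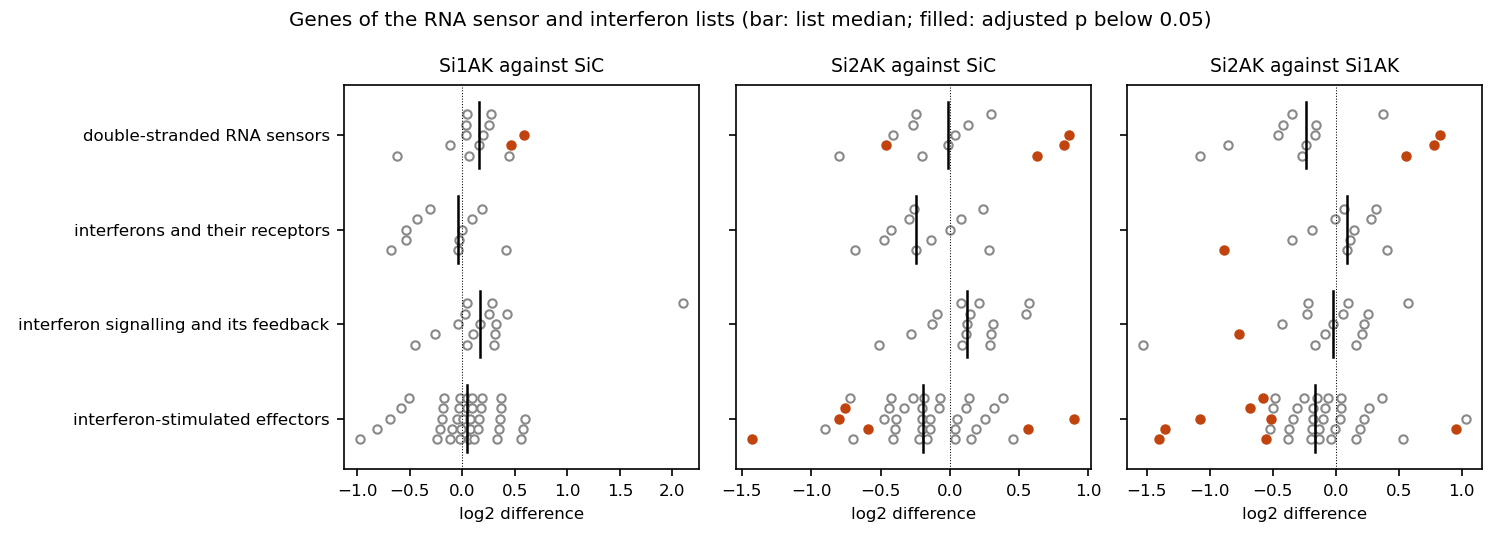
Log2 differences of the tested genes of 4 lists, 1 point per gene by its brightest probe, in 3 comparisons. Black bars are list medians and filled points had a limma adjusted p below 0.05. With Si1AK against SiC the filled points are 2 sensors, Ddx58 and Zbp1, and with Si2AK they lie on both sides of 0.

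Markers were read for the cell type. Of 10 keratinocyte and carcinoma markers, 9 were well above background on all 12 arrays of ordinary signal, and the exception was Cdh1, on none of them. Markers of other cell types were also detected, 3 of 7 for fibroblasts, 5 of 8 for leukocytes, 3 of 4 for endothelium and 3 of 5 for melanocytes, although the pan-leukocyte marker Ptprc was well above background on 3 of 14 arrays. With Si2AK against SiC 3 of 9 tested keratinocyte markers (Krt14, Trp63 and Itgb4) were called higher, where 7.53% of genes were, and these calls held in 2, 3 and 4 of 6 fits that left out 1 array. In the same comparison the fibroblast marker Pdgfra (0.87) and the melanocyte marker Mitf (1.003) were called higher and the leukocyte marker Siglech (-0.38) lower, and with Si1AK against SiC the endothelial marker Cdh5 was called higher (1.10). These 4 calls held in 6 of 6, 4 of 6, 1 of 6 and 2 of 7 such fits.

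The log2 of the summed keratinocyte level was 10.4 on all 3 Si2AK arrays, 9.80 to 10.3 on SiC, 9.99 to 10.2 on Si1AK and 10.3 to 10.5 on NT arrays. The summed leukocyte level was 6.61 to 6.81 on Si2AK, 6.69 to 6.82 on Si1AK, 6.98 to 7.13 on SiC and 6.91 to 7.21 on NT arrays. The summed melanocyte level was 2.25 to 2.38 on Si2AK, 1.37 to 1.65 on Si1AK, 1.47 to 1.71 on SiC and 1.32 to 1.56 on NT arrays. The summed fibroblast level was 0.97 to 1.27 on Si2AK, 0.38 to 0.94 on Si1AK, 0.33 to 0.87 on SiC and 0.016 to 0.24 on NT arrays. The summed endothelial level was 3.47 to 3.78 on Si2AK, 3.30 to 3.54 on Si1AK, 3.19 to 3.55 on SiC and 3.43 to 4.04 on NT arrays. Between Si2AK and SiC the leukocyte sums (lower with Si2AK) and the keratinocyte, melanocyte and fibroblast sums (higher with Si2AK) did not overlap. A sum is carried mainly by its brightest genes, such as Siglech among leukocyte markers (mean level 6.67) and Mitf among melanocyte markers (1.38). Counted by gene, called or not, 3 of 5 tested leukocyte and 1 of 4 melanocyte markers were higher with Si2AK than with SiC. For keratinocyte and fibroblast markers it was 9 of 9 and 4 of 6. The direction of the leukocyte and melanocyte sums is therefore not that of most of their markers. The part of these markers in the Oas values was not tested. In bulk RNA, fewer cells that express a gene and less of its RNA per cell cannot be told apart.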

How the data were processed

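Per the file headers, scans were quantified by Agilent's Feature Extraction, version 10.7.3.1, and probe positions are on mm9. The authors deposited a processed signal, an intensity with background subtracted within each array; the deposited marks for spots well above background are flags (other values). The authors' deposited table holds log2 values; limma is named in the submitters' processing notes without a version. Its columns correlated with log2 mean signal at Pearson r of at least 0.988 across probes; a log2 scale and higher values for brighter spots fit that, and the background step stays unknown.

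Levels here are log2 processed signal after subtraction of the array's own 75th percentile. The number of arrays limits the precision, and no spot was saturated. Outlier and control spots were left out. A single limma model (version 3.58.1, R 4.3.3) held all 14 arrays (10 residual degrees of freedom), after the steps were tested on simulated data. Names came from RefSeq for 27656 probes, otherwise from the array. Errors of differences are standard errors. The members and gene lists were chosen with earlier results of these data known. Named were every member probe, every tested gene of the Oas1 paralogue list, those of the 2-5A partner list other than items not reported here, and up to 4 genes with the largest called differences of each other list; Ifnb1, Ddx58, Dhx9, Gbp3, Ifi27, Ifit1 against NT and genes called between the siRNAs were named after their values were seen.

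Same-numbered arrays of NT and Si1AK deviated together in all 4 pairs (r of 0.23, 0.115, 0.164 and 0.139), the numbers coming from the sample titles. With the replicate number as a block their comparison kept 3 calls of 9, and limma called 1211 of all 30326 probes. Alternatives were other scalings, filters, sample subsets, slide and replicate blocks, array weights and leaving out single arrays.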

Additional observations from a re-analysis of the deposited data

Results flagged for a closer look

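In Si1AK the Oasl2 level of replicate 2, -1.29, stood far above the nearest other array, -1.74, with a gap that was 0.92 of the group's whole range. The threshold used for such gaps is passed by chance in about 1 in 20 groups. The 2 siRNAs, each against SiC, differed in their effect on 4 probes by limma's direct comparison: -1.82 on the shared and -1.64 on the specific Oas1a probe, -0.76 on Oasl2 and 0.91 on Oasl1 (Si2AK minus Si1AK).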

How the results depend on the processing

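Of the 14 called differences of family probes, none changed direction in 178 refits with other settings, which kept 136 calls and lost 42, or in 98 refits that left out 1 array, which kept 89 and lost 9. A change of sign between 2 uncalled values was not counted as a reversal, and such changes occurred for Oas1a, Oas1b, Oas2, Oas3, Oasl1 and Oasl2. Of the 40 uncalled differences, 23 values of 500 under other settings and 1 of 280 without an array passed the threshold. Some of the 23 are of Oas2, from which no call is read. The number of family probes called was 0 in slide 1 alone and 0 in slide 2 alone for Si1AK against SiC, Si2AK against SiC, Si1AK against NT and Si2AK against NT (main counts 2, 3, 3 and 2; limma, with 2 to 5 probes at an unadjusted p below 0.05), and 1 and 2 for Si2AK against Si1AK (main 4), where fewer arrays were fitted. Over all probes, slide 1 called 0 of 30238 for both comparisons with SiC and slide 2 called 1 of 30325 and 25 of 30319, so the 0 says nothing about the members. Against NT the totals in slide 1 alone were 0 of 30326 for Si1AK and 70 for Si2AK. Slide 2 alone called 0 of 30325 for Si1AK against NT, and slide 1 alone 122 of 30326 for Si2AK against Si1AK. Si1AK against SiC called 1 with 1 probe per gene, 1 with no filter on dim probes and 1 with only the groups compared. It called 1 with the replicate block and 5 with array weights. Over everything tested, those settings before array weights called 789 of 21374, 311 of 55681, 174 of 30326 and 721 of 30326. The 5 include Oas2, which entered the tests only through the Si1AK group. Si2AK against SiC called 0 with only the groups compared (3 at an unadjusted p below 0.05), and Si1AK against NT called 5 with array weights. Over all 30326 probes, that fit of Si2AK against SiC called 0, and array weights called 5345 for Si1AK against SiC and 3974 for Si1AK against NT (main 961 and 1467). Apart from the construction of the slide, probe and group subsets, the cause was not tested. Leaving out single arrays gave 1 to 2 calls for Si1AK against SiC, 2 to 3 for Si2AK against SiC, 4 to 4 for Si2AK against Si1AK, 3 to 3 for Si1AK against NT, 2 to 3 for Si2AK against NT and 0 to 0 for SiC against NT. For Si1AK against SiC those fits called 429 to 865 of all tested probes, and for Si2AK against SiC 1459 to 2955. Between Si2AK and Si1AK they called 1764 to 2161. Against NT they called 726 to 1124 with Si1AK, 2217 to 2806 with Si2AK and 0 to 9 with SiC. Same-numbered arrays of NT and SiC also deviated together in each pair (r of 0.663, 0.0722 and 0.246). With the replicate number as a block SiC against NT called 0 of the 9 family probes and 0 of all 30326. In the remaining comparisons the sign of r differed between pairs (SiC with Si2AK, r of -0.666, -0.689 and 0.718). The replicate block changed the calls of the specific Oas1a probe against SiC (limma adjusted p = 0.0955 for Si1AK and 0.0628 for Si2AK) and no other call of a member. Signal near background limits Oas2 and Oas1g.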
